A study of Mus musculus with 6 samples.

Results

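Laminins are the secreted proteins that nucleate basement membranes, and the 9 laminin subunit genes examined here were *Lama1*, *Lama2*, *Lama3*, *Lama4* and *Lama5* for the alpha chains, *Lamb1*, *Lamb2* and *Lamb3* for the beta chains and *Lamc1* for the gamma chain. They were chosen by gene symbol, and all 9 were present among the 24062 genes counted. The values are bulk RNA-seq counts from mouse DRG/tumors, with 3 libraries per genotype on the C57BL/6-I129 background. The first genotype was *Nf1fl/fl;DhhCre*, a mouse model of neurofibroma in which Cre recombinase driven by the *Dhh* promoter deletes the floxed *Nf1* tumor suppressor in the Schwann cell (SC) lineage. The second carried floxed *Runx1* and *Runx3* as well, again with DhhCre, and is called double knockout (DKO) here. Its label, Rx1flfl;Rx3fl/fl;DhhCre, leaves out Nf1fl/fl, which the methods of the study give for both genotypes. The labels name the tissue DRG for *Nf1fl/fl;DhhCre* and neurofibroma tumor for DKO. By these labels, tissue and genotype cannot be told apart. The paper differs from them: its methods give DRG/tumors for both genotypes, and its results name tumors for *Nf1fl/fl;DhhCre* and DRG/tumors for DKO. Neurons, macrophages, vessels and other cells outside the *Dhh* lineage keep their floxed alleles and contribute RNA to every library. Whether the fibroblasts of these samples carry deleted alleles is not shown by the sources used here. The age of these mice is not given in the sources used here.

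Each laminin is a trimer of 1 alpha, 1 beta and 1 gamma chain, joined along a coiled coil. Trimers assemble into a sheet on the cell surface, where the alpha chain binds integrins and dystroglycan, and nidogen and the heparan sulfate proteoglycans perlecan and agrin tie the sheet to the collagen IV network. SCs lay down a basement membrane around every axon-SC unit. They need its laminins, mainly those with the alpha 2 and alpha 4 chains, to sort axons and to myelinate, and loss of *LAMA2* in people causes a muscular dystrophy with neuropathy.

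Library totals ranged from 12439296 to 16682194 counts, and 15652 genes had enough counts to be tested. The labels name a different mouse for each library. The targeted genes were checked first. *Runx1* was at 131, 141 and 172 CPM (counts scaled to a common library total) in *Nf1fl/fl;DhhCre* and at 84.0, 78.9 and 185 CPM in DKO-labelled libraries. Replicate 3 labelled DKO thus had the most *Runx1* of the 6 libraries, although its label names floxed *Runx1*. The log2 fold change of *Runx1* was -0.44 (SE 0.32, limma-voom adjusted p = 0.370), and without that library it was -0.85 and passed (limma-voom adjusted p = 0.0290). Replicate 3 labelled DKO also had the highest summed sensory neuron markers, 14050 CPM against 6205 and 7196 CPM in replicates 1 and 2 labelled DKO. Cells that keep the floxed allele add *Runx1* RNA, so bulk *Runx1* does not measure deletion in SCs. The source of the *Runx1* RNA was not tested. *Runx3* was at 19.9, 15.1 and 29.9 CPM against 13.5, 10.3 and 12.1 CPM (log2 fold change -0.79, SE 0.30, limma-voom adjusted p = 0.104). *Runx3* did not pass with limma-voom, but passed with DESeq2 (-0.86, DESeq2 adjusted p = 0.0278) and without replicate 2 of *Nf1fl/fl;DhhCre* (-0.99, limma-voom adjusted p = 0.0430). *Nf1*, floxed in both genotypes, was at 302 ± 30.8 and 290 ± 44.5 CPM (SD, n = 3 each, log2 fold change -0.06, limma-voom adjusted p = 0.809). The sum of 9 skeletal muscle markers was 22190 CPM in replicate 2 of *Nf1fl/fl;DhhCre* and 55800 CPM in replicate 2 labelled DKO, and at most 712.8 CPM in the other 4 libraries.

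Of the 9 subunit genes, 8 were tested and *Lamb3* was too low. *Lamc1*, *Lama2*, *Lamb2* and *Lama4* were lower in the DKO-labelled libraries, *Lama3* was higher, and *Lama1*, *Lama5* and *Lamb1* did not pass the test. A gene passed when its limma-voom p-value, adjusted by Benjamini-Hochberg over all genes tested, was below 0.05, and it was called a DEG when the change was also more than 2-fold. Thus 4 laminin genes passed as lower, beside 8.22% of all genes tested, and 1 passed as higher, beside 11.1%. In either direction 5 laminin genes passed, against 19.3% of all genes. The 2 DEGs among them, *Lamc1* and *Lama2*, compare with 13.4% of all genes. Which genes were past 2-fold depended on the setting: with sample quality weights, and without replicate 2 of *Nf1fl/fl;DhhCre*, the 2 DEGs were *Lamc1* and *Lama3*, and without replicate 1 labelled DKO all 3 were DEGs. The edgeR quasi-likelihood test and DESeq2 each gave the same numbers, 4 lower and 1 higher. The median log2 fold change was -0.61 over the 8 laminin genes tested and 0.015 over all genes tested. In bulk samples, fewer cells of a type and less RNA per cell cannot be told apart, and this holds for every change given here.

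**Figure D1:**
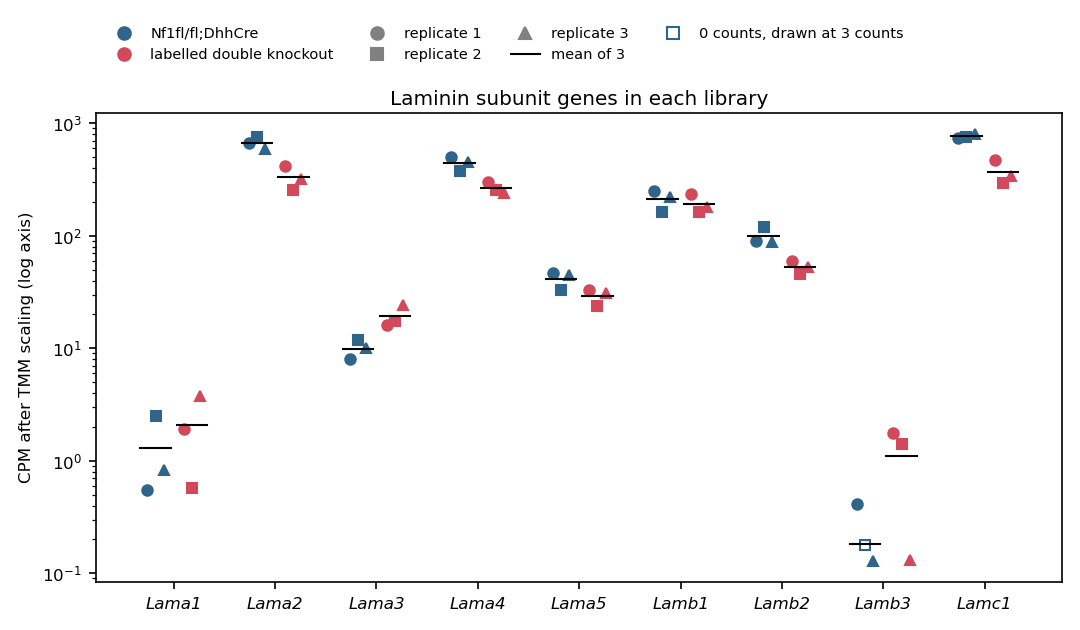
Level of each laminin subunit gene in each of the 6 libraries, in CPM on a log axis (the 0 count of *Lamb3* is the open square, drawn at the level of 3 counts), with blue points for *Nf1fl/fl;DhhCre*, red points for DKO-labelled libraries and bars at the group means. *Lamc1*, *Lama2*, *Lama4* and *Lamb2* lie lower in all 3 DKO-labelled libraries than in any *Nf1fl/fl;DhhCre* library, and *Lama3* lies higher.

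The gamma 1 chain, encoded by *Lamc1* (chr1:153218922-153332786, minus strand, GRCm38), is part of most laminin trimers and is required for basement membranes to form. *Lamc1* was at 746, 760 and 797 CPM in *Nf1fl/fl;DhhCre* and at 469, 295 and 340 CPM in DKO-labelled libraries. The *Nf1fl/fl;DhhCre* values lay close together, and the highest DKO-labelled value, that of replicate 1, was still well under the lowest of them. The means were 768 ± 26.2 and 368 ± 90.3 CPM (SD, n = 3 each). *Lamc1* thus fell 2.09-fold in mean CPM, with a fitted log2 fold change of -1.09 (SE 0.17, 95% CI -1.49 to -0.68, limma-voom adjusted p = 0.0116). The decreases of *Lamc1* and *Lama2* differed by less than their SEs. Groups without overlap, as for *Lamc1*, were seen for 42.3% of all genes tested.

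The alpha chain carries the receptor-binding domains and sets the type of laminin. *Lama2* (chr10:26980036-27619758, minus strand) encodes the alpha 2 chain of the basement membranes of SCs and skeletal muscle. *Lama2* was at 665, 760 and 591 CPM in *Nf1fl/fl;DhhCre* and at 415, 257 and 323 CPM in DKO-labelled libraries. No value of one genotype reached the range of the other. *Lama2* fell 2.03-fold, from 672 ± 84.8 to 332 ± 79.3 CPM (SD, n = 3 each), with a log2 fold change of -1.04 (SE 0.19, 95% CI -1.48 to -0.59, limma-voom adjusted p = 0.0151). The highest and the lowest *Lama2* values came from the libraries with the most skeletal muscle RNA, replicate 2 of *Nf1fl/fl;DhhCre* and replicate 2 labelled DKO. Without both, the log2 fold change was -0.76 (limma-voom adjusted p = 0.0472), so that *Lama2* still passed as lower but was no longer a DEG. An annotated antisense gene, *Gm48084*, overlaps 3.86% of the *Lama2* exon length, and reads of the pair cannot be told apart if strand was ignored in counting.

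*Lama4* (chr10:38965515-39110188, plus strand) encodes the alpha 4 chain, found in vessel walls and in SC basement membranes. *Lama4* was at 503, 377 and 453 CPM in *Nf1fl/fl;DhhCre* and at 298, 255 and 241 CPM in DKO-labelled libraries. Again the genotypes did not overlap, although replicate 2 of *Nf1fl/fl;DhhCre* was lower than its group. The means were 444 ± 63.2 and 265 ± 29.7 CPM (SD, n = 3 each), a log2 fold change of -0.74 (SE 0.15, 95% CI -1.09 to -0.39, limma-voom adjusted p = 0.0188), which is 1.68-fold lower and short of the 2-fold limit for a DEG.

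*Lama5* (chr2:180176373-180225859, minus strand) encodes the alpha 5 chain, the broadly expressed alpha chain of mature epithelial and vascular basement membranes. It was at 46.5, 32.8 and 45.0 CPM in *Nf1fl/fl;DhhCre* and at 33.0, 23.8 and 31.0 CPM in DKO-labelled libraries, and the genotypes overlapped at replicate 2 of *Nf1fl/fl;DhhCre*. The log2 fold change of *Lama5* was -0.49 (SE 0.21, 95% CI -0.97 to -0.0062) and did not pass after adjustment (limma-voom adjusted p = 0.138).

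*Lama3* (chr18:12333819-12583013, plus strand) encodes the alpha 3 chain of laminin-332, the anchor of epithelial cells such as keratinocytes. It moved the other way. *Lama3* was at 7.98, 11.7 and 10.1 CPM in *Nf1fl/fl;DhhCre* and at 16.2, 17.4 and 24.2 CPM in DKO-labelled libraries, from counts of 115 to 366 per library. Every DKO-labelled library was above every *Nf1fl/fl;DhhCre* library. *Lama3* rose 1.93-fold, with a log2 fold change of 0.95 (SE 0.25, 95% CI 0.37 to 1.52, limma-voom adjusted p = 0.0368). Without both muscle-rich libraries the log2 fold change was 1.16 and no longer passed (limma-voom adjusted p = 0.0610). The antisense gene *Gm29200* overlaps 1.83% of the *Lama3* exon length. Of 6 epithelial markers, *Krt5*, *Krt14* and *Krt8* were at 0 counts in all 6 libraries. *Krt18* had 4, 0 and 1 counts in *Nf1fl/fl;DhhCre* and 0 in every DKO-labelled library, and *Epcam* had 40, 2 and 66 counts against 4, 0 and 0. Neither was tested. The summed level of the 6 markers was 57.43 to 70.17 CPM against 184.7 to 256.9 CPM, nearly all of it from *Cdh1*, the 1 marker that could be tested, which was higher in the DKO-labelled libraries (log2 fold change 1.75, limma-voom adjusted p = 0.00598). *Cdh1* encodes E-cadherin, which is also found in the autotypic junctions of myelinating SCs.

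*Lama1* (chr17:67697259-67822647, plus strand) encodes the alpha 1 chain of embryonic basement membranes. Its counts were 8, 42 and 13 in *Nf1fl/fl;DhhCre* and 24, 7 and 57 in DKO-labelled libraries, or 0.555 to 2.50 CPM and 0.576 to 3.76 CPM. The genotypes overlapped along most of their ranges. The log2 fold change of *Lama1* had a wide interval, 0.64 (SE 0.85, 95% CI -1.35 to 2.64, limma-voom adjusted p = 0.631), so a change of 2-fold in the direction of either genotype lay within it, and without replicate 3 labelled DKO the value was -0.024.

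Of the beta chain genes, *Lamb2* (chr9:108479736-108490530, plus strand) encodes the beta 2 chain, known from the synaptic basement membrane of the neuromuscular junction, the kidney glomerulus and peripheral nerve. *Lamb2* was at 89.6, 119 and 89.0 CPM in *Nf1fl/fl;DhhCre* and at 59.9, 45.7 and 52.7 CPM in DKO-labelled libraries. The groups lay apart, and the highest and the lowest value again came from the muscle-rich libraries. *Lamb2* fell from 99.2 ± 17.1 to 52.8 ± 7.10 CPM (SD, n = 3 each), 1.88-fold, with a log2 fold change of -0.91 (SE 0.17, 95% CI -1.32 to -0.50, limma-voom adjusted p = 0.0173). Without both muscle-rich libraries it was -0.66 and did not pass (limma-voom adjusted p = 0.0594).

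*Lamb1* (chr12:31265234-31329644, plus strand) encodes the beta 1 chain, the partner of alpha 2 and gamma 1 in laminin-211, the main laminin of SCs. *Lamb1* was at 251, 164 and 222 CPM in *Nf1fl/fl;DhhCre* and at 235, 162 and 180 CPM in DKO-labelled libraries. The ranges overlapped almost fully, and replicate 2 was the lowest library of each genotype. The means of *Lamb1* were 212 ± 44.2 and 192 ± 37.9 CPM (SD, n = 3 each), with a log2 fold change of -0.14 (SE 0.20, limma-voom adjusted p = 0.676). Its 95% CI ran from -0.62 to 0.34 and overlapped those of *Lama2*, *Lama4* and *Lamb2*, but not that of *Lamc1* (-1.49 to -0.68).

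*Lamb3* (chr1:193207699-193343878, plus strand) encodes the beta 3 chain, which like alpha 3 belongs to laminin-332. It had 6, 0 and 2 counts in *Nf1fl/fl;DhhCre* and 22, 17 and 2 counts in DKO-labelled libraries. A count of 0 and both counts of 2 were under 3 counts, which correspond to 0.179 to 0.247 CPM in these libraries. *Lamb3* fell under the filter on low counts and was not tested with all 6 libraries. It was tested when every gene with a count was kept and in 4 of the 6 fits that left out 1 library, and did not pass in any of them.

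**Figure D2:**
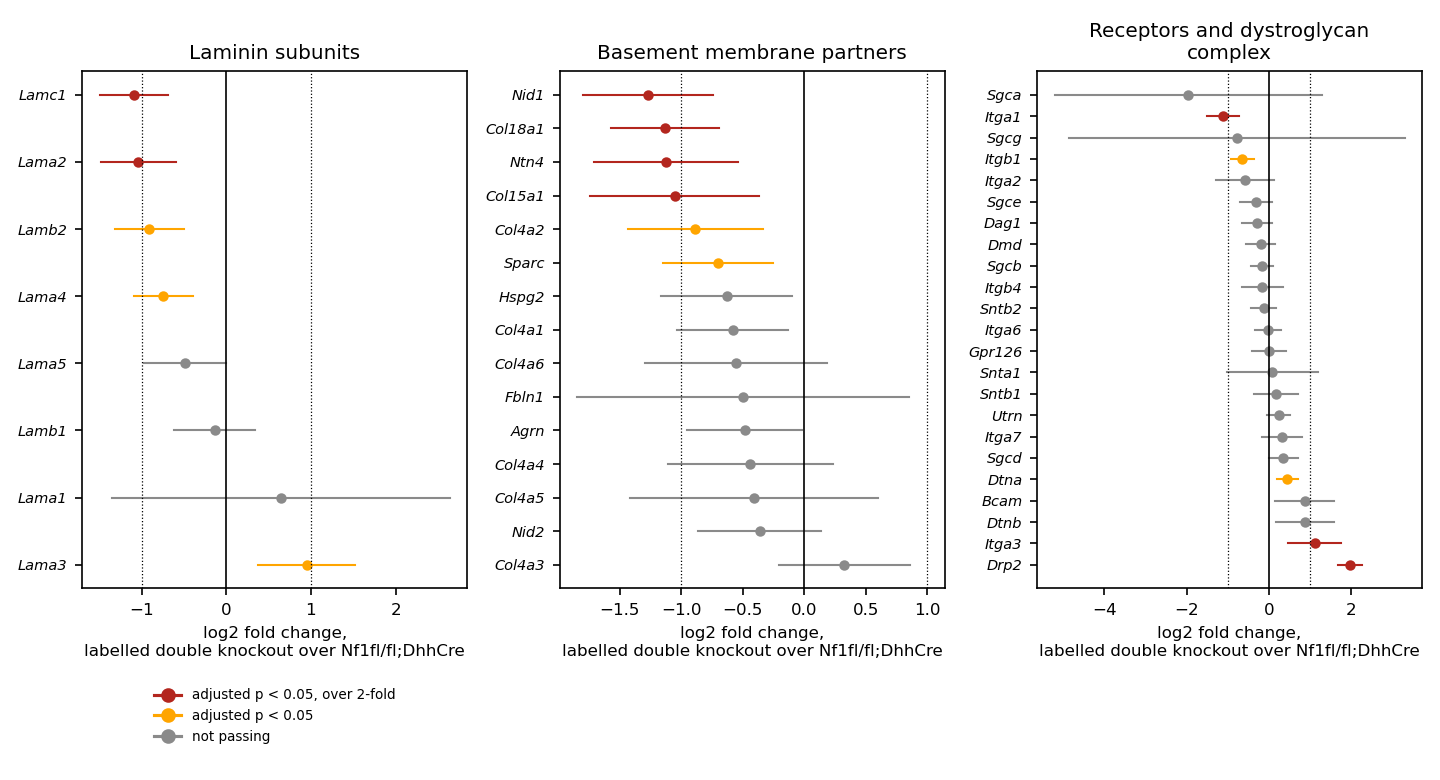
Log2 fold change (DKO-labelled over *Nf1fl/fl;DhhCre*) with its 95% CI from limma-voom for the 8 laminin subunit genes tested and for all genes of the partner and receptor lists. DEGs are red, other genes that passed orange and the rest grey, with dotted lines at 2-fold: *Lamc1*, *Lama2*, *Lamb2* and *Lama4* lie left of 0 with *Nid1*, *Col18a1* and *Itga1*, whereas *Lama3*, *Itga3* and *Drp2* lie right of it.

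The bases before an annotated transcription start are shown for each of 3 subunit genes that differ in their calls. *Lama2* and *Lamb2* passed as lower, and *Lamb1* did not pass. A difference between their changes was not shown, and the CI of *Lamb1* overlapped those of *Lama2* and *Lamb2*. RUNX factors bind DNA at the core word TGTGG, or CCACA on the other strand. The sequences are the 250 bases upstream of a RefSeq start (GRCm38.p6), printed 5′ to 3′ on the strand of the gene, with GC boxes (GGGCGG, or CCGCCC on the other strand) in capitals. They are *Lama2* at chr10:27616943-27617192 (minus strand), *Lamb2* at chr9:108479612-108479861 (plus strand) and *Lamb1* at chr12:31265043-31265292 (plus strand). The *Lama2* start, at 27616942, lies well inside the gene, whose 5′ end is at 27619758, so this window is not that of the outermost start. Which starts were used in these samples was not tested.
Lama2: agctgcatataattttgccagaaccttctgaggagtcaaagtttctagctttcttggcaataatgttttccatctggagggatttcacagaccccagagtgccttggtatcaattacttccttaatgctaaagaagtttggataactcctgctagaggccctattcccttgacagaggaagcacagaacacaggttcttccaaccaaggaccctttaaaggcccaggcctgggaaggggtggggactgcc
Lamb2: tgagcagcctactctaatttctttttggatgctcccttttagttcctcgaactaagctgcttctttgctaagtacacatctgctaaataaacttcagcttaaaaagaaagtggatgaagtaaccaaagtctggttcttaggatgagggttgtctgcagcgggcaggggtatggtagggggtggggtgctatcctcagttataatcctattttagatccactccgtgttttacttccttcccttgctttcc
Lamb1: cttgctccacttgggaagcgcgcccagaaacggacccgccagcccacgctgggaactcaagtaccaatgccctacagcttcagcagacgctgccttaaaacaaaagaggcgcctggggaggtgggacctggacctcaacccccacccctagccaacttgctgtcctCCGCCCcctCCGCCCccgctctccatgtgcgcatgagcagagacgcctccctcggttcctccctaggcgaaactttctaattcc
None of the 3 windows held the core word on either strand, whereas 49.3% of all 32851 windows of this length did. *Lamb1* had 2 GC boxes and 62% G+C, whereas *Lama2* and *Lamb2* had no GC box and 47.2% and 43.6% G+C. A GC box was found in 32.7% of all windows, whose median G+C was 52.4%. RefSeq windows were matched for 5 of the 9 members, *Lama2*, *Lama5*, *Lamb1*, *Lamb2* and *Lamb3*. The *Lama5* window had 4 GC boxes, 72.4% G+C and no core word. Of the *Lamb3* windows at 2 starts, 1 held 3 core words and the other none. Both *Lamb3* starts, at 193301994 and 193302243, lie well inside the gene, whose 5′ end is at 193207699. A match is a run of letters in the window and no measure of binding.

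To compare subunit levels with each other, CPM were divided by exon length. In *Nf1fl/fl;DhhCre*, *Lamc1* was the highest at 92.8 ± 3.17 CPM per kb (SD, n = 3). It was followed by *Lama2* at 41.1 ± 5.19 and *Lama4* at 36.8 ± 5.24 CPM per kb, whose libraries overlapped. Per kb of coding sequence the order of this pair turned, with *Lama4* at 51.5% and *Lama2* at 45.5% of the alpha chain level. Next came *Lamb1* at 21.4 ± 4.46 and *Lamb2* at 16.3 ± 2.82 CPM per kb, which overlapped as well. Per kb of coding sequence these 2 genes did not overlap, and *Lamb1* was the higher. The exon and coding lengths are 9.917 and 5.502 kb for *Lamb1* and 6.082 and 5.523 kb for *Lamb2*. *Lama5* at 3.64 ± 0.661 and *Lama3* at 0.926 ± 0.176 CPM per kb stood apart from each other and from the rest, and *Lama1* and *Lamb3* were lowest.

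In the DKO-labelled libraries *Lamc1* again came first at 44.5 ± 10.9 CPM per kb (SD, n = 3). *Lama4* at 22.0 ± 2.46, *Lama2* at 20.3 ± 4.85 and *Lamb1* at 19.4 ± 3.83 CPM per kb were next, and each overlapped its neighbour in that order. *Lamb2* followed at 8.68 ± 1.17 CPM per kb. *Lama5* at 2.57 ± 0.423 and *Lama3* at 1.79 ± 0.401 CPM per kb, apart in *Nf1fl/fl;DhhCre*, overlapped here. The order of the chains was therefore much the same in both genotypes. Per kb of exon, *Lamb1* had rank 4 in both, and the means of *Lama2* and *Lama4* came down to near its level. Per kb of coding sequence, the *Lama2* mean came down to near that of *Lamb1*, but *Lama4* stayed above *Lamb1* in the DKO-labelled libraries.

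The summed level of the 9 genes was 2310.4, 2227.6 and 2207 CPM in *Nf1fl/fl;DhhCre* and 1530, 1058.5 and 1196.1 CPM in DKO-labelled libraries. Within that lower sum, *Lama2* made up 46.7%, 56.7% and 46.0% of the alpha chain level per kb in *Nf1fl/fl;DhhCre* and 46.4%, 38.7% and 43.8% in DKO-labelled libraries. *Lama4* made up 44.5 ± 5.54% and 47.2 ± 4.22% (SD, n = 3 each). The shares of both main alpha chains overlapped between genotypes. The share of *Lama3* was 0.851%, 1.33% and 1.20% against 2.75%, 3.97% and 4.98%, without overlap. That of *Lama5* was 4.41 ± 0.795% against 5.49 ± 0.476%, also without overlap, or 2.35% against 2.96% per kb of coding sequence.

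Among the beta chains, *Lamb1* made up 63.1%, 45.8% and 60.4% of the summed *Lamb1*, *Lamb2* and *Lamb3* level per kb in *Nf1fl/fl;DhhCre* and 70.1%, 67.9% and 67.7% in DKO-labelled libraries. The DKO-labelled values lay close together and above all 3 others. The ratio of *Lamb1* to *Lamc1* per kb was 0.281, 0.180 and 0.232 in *Nf1fl/fl;DhhCre* and 0.418, 0.458 and 0.443 in DKO-labelled libraries, a log2 difference of 0.95. The ratio of *Lamb1* to *Lamb2* was 1.72, 0.846 and 1.53 against 2.40, 2.17 and 2.10, a log2 difference of 0.77. Both gave p = 0.1 in an exact two-sided permutation test, the smallest p that 3 against 3 libraries allow, so that neither could pass (0.3 after Benjamini-Hochberg adjustment over 6 ratios). The ratio of *Lama2* to *Lamc1* was 0.444 ± 0.0657 and 0.457 ± 0.0214 in the same order (SD, n = 3 each, exact two-sided permutation p = 0.9). In all, 6 such ratios were computed, and they were chosen after the levels had been seen. The smallest exact permutation p among the remaining 3, *Lama4* to *Lama2*, *Lama4* to *Lamc1* and *Lamb2* to *Lamc1*, was 0.2, or 0.4 after adjustment over the 6.

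**Figure D3:**
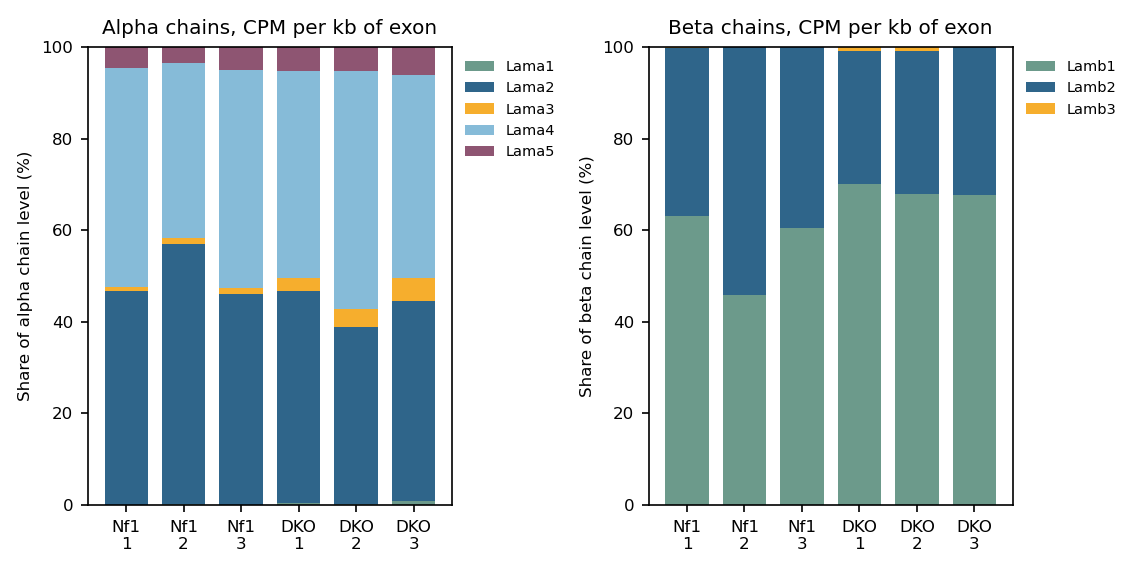
Percent of the summed alpha chain level (*Lama1* to *Lama5*) and of the summed beta chain level (*Lamb1* to *Lamb3*), each in CPM per kb of exon, for each of the 6 libraries as stacked bars from 0. *Lama2* and *Lama4* hold most of the alpha chain level in every library, and the *Lamb1* share is 67.7% to 70.1% in DKO-labelled libraries against 45.8% to 63.1%.

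Partner genes encode the proteins that bind laminins into the basement membrane. Of 15 such genes, all tested, 6 passed as lower, beside 8.22% of all genes tested, and none as higher, beside 11.1%. The median of their log2 fold changes was -0.58, and 14 of the 15 were negative. *Nid1*, which encodes nidogen 1, the link between the laminin gamma 1 chain and collagen IV, was at 2178, 2236 and 2323 CPM in *Nf1fl/fl;DhhCre* and at 1342, 695 and 865 CPM in DKO-labelled libraries. *Nid1* showed the same order of libraries as *Lamc1*, and fell by 1.27 on the log2 scale (SE 0.22, limma-voom adjusted p = 0.0143). *Col18a1*, the gene of the basement membrane collagen from which endostatin is cleaved, fell from 110 ± 5.64 to 51.2 ± 13.0 CPM (SD, n = 3 each, log2 fold change -1.13, limma-voom adjusted p = 0.0127).

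*Ntn4*, which encodes netrin 4, a laminin-related protein that binds gamma chains, fell from 38.3 ± 9.54 to 17.4 ± 3.67 CPM (SD, n = 3 each, log2 fold change -1.13, limma-voom adjusted p = 0.0244). *Col15a1*, whose collagen links basement membranes to the fibrils beneath, fell from 448 ± 133 to 215 ± 62.2 CPM (log2 fold change -1.05, limma-voom adjusted p = 0.0457). *Col4a2*, a chain of the collagen IV network, and *Sparc*, a collagen-binding matricellular protein, passed with log2 fold changes of -0.88 and -0.70 (limma-voom adjusted p = 0.0396 and 0.0427). The other main collagen IV chain gene, *Col4a1*, at -0.58, *Hspg2* (perlecan), at -0.63, and *Agrn* (agrin), at -0.48, did not pass (limma-voom adjusted p = 0.0740, 0.0933 and 0.132; these 3 were named after their values were seen). With the edgeR quasi-likelihood test 4 partner genes passed as lower, *Col4a2* and *Sparc* no longer among them, and with DESeq2 7 did. Of the 6 fits that left out 1 library, *Nid1* and *Col18a1* passed in 5, *Ntn4* and *Sparc* in 2, and *Col15a1* and *Col4a2* in 1. No partner gene passed without replicate 1 of *Nf1fl/fl;DhhCre*, and 2, *Nid1* and *Col18a1*, passed without its replicate 3 or without replicate 2 labelled DKO. Without replicate 3 labelled DKO, *Nid1*, *Col18a1* and *Ntn4* passed. *Col15a1*, *Col4a2* and *Sparc* then did not pass, at log2 fold changes of -1.11, -0.81 and -0.64 (limma-voom adjusted p = 0.0867, 0.103 and 0.105). Without both muscle-rich libraries 4 passed. *Ntn4* at -0.74 and *Col4a2* at -0.61 then did not pass (limma-voom adjusted p = 0.0666 and 0.168), and *Col18a1* at -0.92 passed but was no longer a DEG.

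The laminin receptor genes passed about as often as other genes. Of 23 receptor and dystroglycan complex genes, all tested, 2 passed as lower and 3 as higher, which is 21.7% in either direction beside 19.3% of all genes tested, and the median of all 23 log2 fold changes was -0.02. *Itga1*, the alpha chain of an integrin that binds collagens and laminins, was at 168, 145 and 181 CPM in *Nf1fl/fl;DhhCre* and at 84.4, 83.7 and 61.3 CPM in DKO-labelled libraries (log2 fold change -1.12, SE 0.17, limma-voom adjusted p = 0.0108). *Itgb1*, the beta chain of most laminin-binding integrins, fell from 440 ± 44.6 to 280 ± 11.7 CPM (SD, n = 3 each, log2 fold change -0.65, limma-voom adjusted p = 0.0151). In both genes all DKO-labelled libraries were below all *Nf1fl/fl;DhhCre* libraries.

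*Drp2* rose most. It encodes dystrophin-related protein 2, which joins dystroglycan to periaxin on the outer surface of myelinating SCs. *Drp2* was at 287, 293 and 345 CPM in *Nf1fl/fl;DhhCre* and at 1332, 1103 and 1168 CPM in DKO-labelled libraries, 3.89-fold higher (log2 fold change 1.96, SE 0.13, limma-voom adjusted p = 0.00374). *Itga3*, the alpha chain of an integrin that binds laminin-332 and laminin-511, rose from 10.3 ± 2.19 to 22.3 ± 5.86 CPM (SD, n = 3 each, log2 fold change 1.11, limma-voom adjusted p = 0.0324), but passed in 2 of the 6 fits that left out 1 library and not without replicate 3 labelled DKO (0.91, limma-voom adjusted p = 0.0723). *Dtna*, which encodes alpha-dystrobrevin of the dystroglycan complex, rose by 0.44 on the log2 scale (limma-voom adjusted p = 0.0326), but did not pass without both muscle-rich libraries (0.45, limma-voom adjusted p = 0.0936) or without replicate 3 labelled DKO (0.42, limma-voom adjusted p = 0.0688). *Dag1*, dystroglycan itself, was at 1169 ± 219 and 946 ± 63.8 CPM (log2 fold change -0.29, limma-voom adjusted p = 0.239), and *Itga6*, the alpha chain of the main laminin integrins of SCs, had a log2 fold change of -0.02 (limma-voom adjusted p = 0.934). *Itgb4*, the beta chain that pairs with the *Itga6* product in another laminin integrin of SCs, had a log2 fold change of -0.16 (limma-voom adjusted p = 0.637). *Gpr126*, an adhesion receptor of SCs that binds laminin-211, had a log2 fold change of 0.00 (limma-voom adjusted p = 0.999). *Dag1*, *Itga6*, *Itgb4* and *Gpr126* were named for their roles after their values were seen. Of these 23 genes, 0 passed as lower and 1 as higher without replicate 1 of *Nf1fl/fl;DhhCre*, 1 and 1 without its replicate 3, and 2 and 1 without replicate 3 labelled DKO. *Drp2* passed in all 6 such fits, *Itga1* in 5, *Itgb1* in 4 and *Dtna* in 2.

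Dystroglycan binds laminin through a sugar chain that a set of glycosyltransferases builds. Of 10 genes of this set, all tested, none passed with limma-voom, beside 19.3% of all genes tested. An unadjusted p below 0.05 was seen for 2 of them, beside 5513 of all 15652 genes. None passed with edgeR, beside 3171 of all genes. With DESeq2 1 passed as higher, beside 4574 of all genes in either direction. Their summed level was 275.9 to 288.7 CPM in *Nf1fl/fl;DhhCre* and 321.6 to 331.9 CPM in DKO-labelled libraries, without overlap. Their log2 fold changes ran from -0.30 to 0.62 with a median of 0.29.

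Across the 6 libraries, the genes of these lists whose log2 CPM followed *Lamc1* most closely were *Nid1* (Pearson r = 0.998), *Col18a1* (r = 0.994) and *Lama2* (r = 0.973). *Col4a2* (r = 0.958), *Lamb2* (r = 0.946), *Itgb1* (r = 0.945) and *Lama4* (r = 0.933) came close behind, and *Lama3* had r = -0.874. These values describe 6 libraries that share the contrast of genotypes, which by itself correlates genes that differ between genotypes.

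Cell type markers differed between genotypes as well, those of fibroblasts and myelinating SCs among them. Fibroblasts and SCs both make laminins. For comparison with the counts below, 8.22% of all genes tested passed as lower and 11.1% as higher. Of 7 fibroblast markers, all tested, 6 passed as lower in the DKO-labelled libraries, at a median log2 fold change of -1.09 over the 7, and their summed level was 9199 to 9859 CPM in *Nf1fl/fl;DhhCre* and 3413 to 5637 CPM in DKO-labelled libraries. Of 9 macrophage markers 7 passed as lower, with sums of 642.5 to 1533 CPM against 119.2 to 290.3 CPM. The 7 general SC markers had overlapping sums of 1370 to 1565 CPM against 1536 to 2051 CPM, at a median log2 fold change of -0.05. Of them 2, *S100b* and *Ngfr*, passed as higher. The fibroblast marker that did not pass, *Dpt*, was at 23.7, 15.5 and 27.0 CPM against 37.5, 35.8 and 4.62 CPM. Of 7 myelinating SC markers 6 passed as higher, with sums of 4916 to 5801 CPM against 10220 to 13620 CPM.

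All 12 sensory neuron markers passed as higher, with sums of 1252 to 2519 CPM in the libraries labelled DRG and 6205 to 14050 CPM in those labelled tumor. The sums of endothelial, mural, skeletal muscle, satellite glia and adipocyte markers overlapped between genotypes. Of these lists, none of the 7 endothelial markers passed with limma-voom (3 at an unadjusted p below 0.05, 0 with edgeR and 1 with DESeq2), 1 of 6 mural markers passed in each direction, as did 1 of 3 satellite glia markers in each direction. No skeletal muscle or adipocyte marker passed or had an unadjusted p below 0.05, and 0 passed with edgeR or DESeq2. The summed fibroblast marker level and *Lamc1*, *Lama2*, *Lamb2* and *Lama4* were thus lower in the same 3 libraries. The part of cell composition in the laminin values was not tested.

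**Figure D4:**
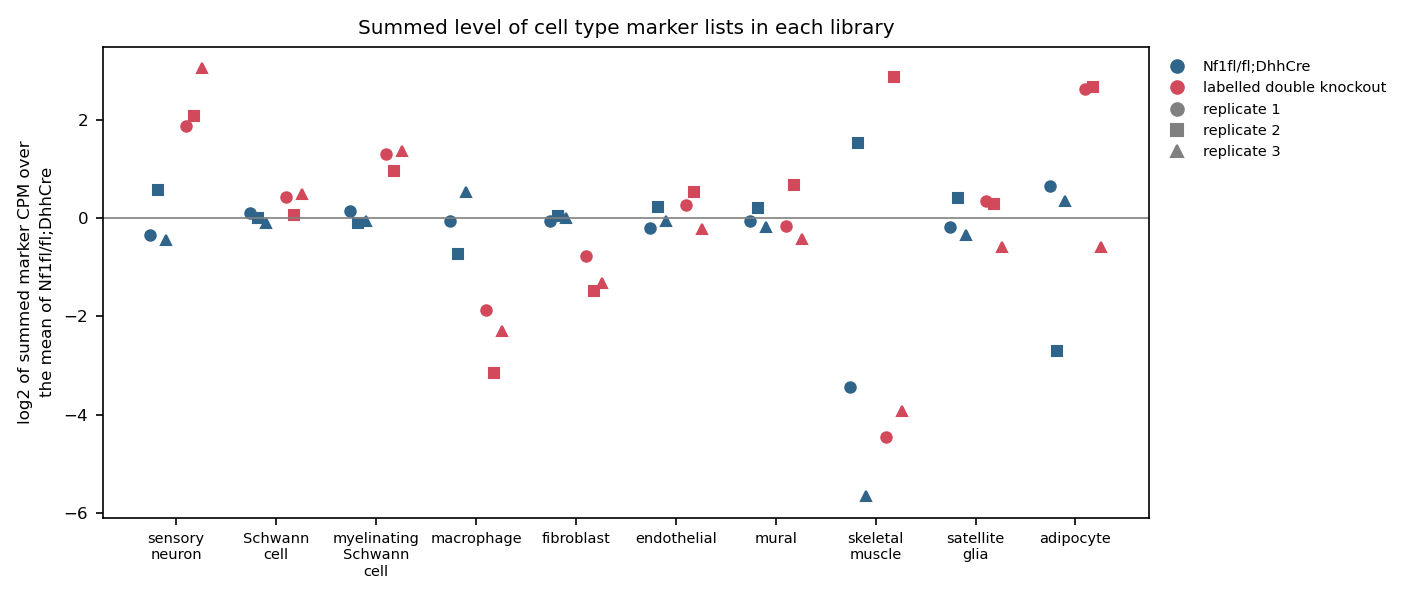
Summed CPM of the cell type marker lists other than the epithelial one in each library, as log2 over the mean of the 3 *Nf1fl/fl;DhhCre* libraries, with the genotype by colour and the replicate by symbol. The fibroblast and macrophage sums are lower in all 3 DKO-labelled libraries, the sensory neuron and myelinating SC sums are higher, and the skeletal muscle sum is high in replicate 2 of each genotype.

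Leaving out each library in turn kept the sign of *Lama2*, *Lama3*, *Lama4*, *Lama5*, *Lamb2* and *Lamc1* in all 6 fits. The log2 fold change of *Lamc1* ranged from -1.24 to -0.94 and that of *Lama2* from -1.17 to -0.87, and each passed in 5 of the 6 fits. *Lamc1* was a DEG in 4 and *Lama2* in 3 of the fits. *Lamb2* passed in 4, *Lama4* in 3 and *Lama3* in 2 of them. Without replicate 1 of *Nf1fl/fl;DhhCre* no laminin gene passed, and with that library left out 383 genes passed in all, against 3017. There the log2 fold change was -1.08 for *Lamc1*, -0.945 for *Lamb2*, -1.015 for *Lama2* and -0.62 for *Lama4*. The limma-voom adjusted p was 0.0537, 0.0573, 0.0608 and 0.0810 in the same order. Without replicate 3 labelled DKO, the library in which *Runx1* was not reduced, *Lama2*, *Lama4*, *Lamb2* and *Lamc1* still passed as lower. *Lama3* then did not pass (log2 fold change 0.76, limma-voom adjusted p = 0.0835). Without replicate 2 labelled DKO, 2 laminin genes passed, *Lama2* and *Lamc1*, and neither was a DEG. Without replicate 3 of *Nf1fl/fl;DhhCre*, *Lama2*, *Lamb2* and *Lamc1* passed.

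**Figure D5:**
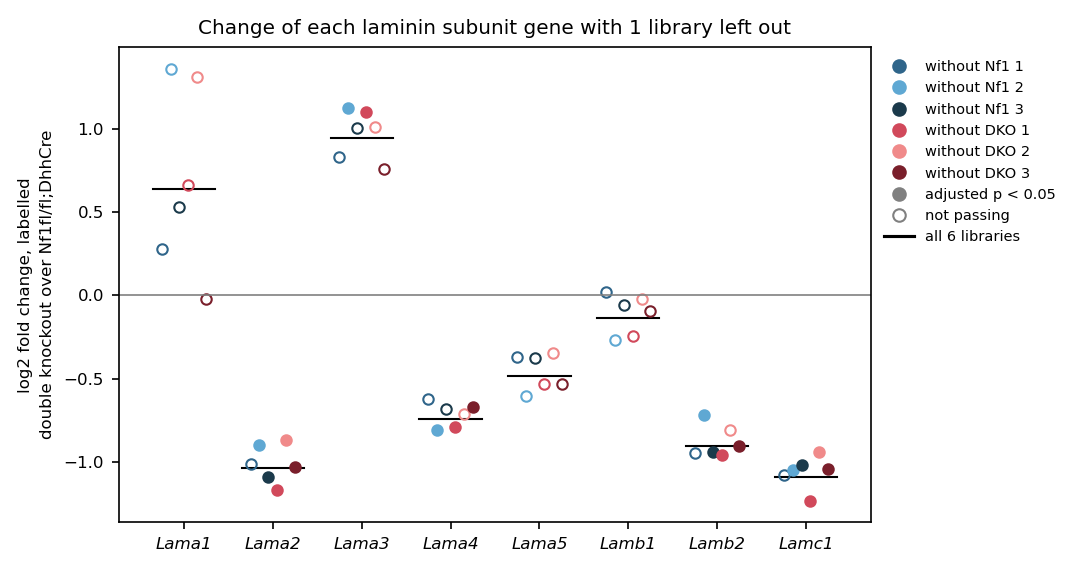
Log2 fold change (DKO-labelled over *Nf1fl/fl;DhhCre*) of each of the 8 laminin subunit genes tested, with 1 library left out at a time; filled points passed the limma-voom test, and the line marks the value from all 6 libraries. *Lamc1*, *Lama2*, *Lamb2* and *Lama4* stay below 0 and *Lama3* above 0 in all 6 fits, whereas *Lama1* and *Lamb1* cross 0 in 1 fit each.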

How the data were processed

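Total RNA from DRG/tumors of 6 mice was amplified by the authors (NuGEN Ovation) and made into Nextera XT libraries, and paired-end reads were aligned to mm10 (TopHat) and assigned to genes (featureCounts). The deposited counts are these whole numbers of reads per gene, not normalized by the authors. The annotation and strand setting are not given in the sources used here. Replicate numbers follow the order of the labels. For some libraries the title and the file header name different mice of 1 genotype, and the labels put 1 DKO-labelled library, replicate 3, in another sequencing run, so the run of replicates 2 and 3 labelled DKO is uncertain and no within-run value was computed beyond the fits without each of them.

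Low genes were removed by filterByExpr at a minimum count of 10 and a minimum total of 15. Counts were TMM-scaled (factors 0.950 to 1.04) and fitted with limma-voom on genotype alone in R 4.3.3 (edgeR 4.0.16, limma 3.58.1). Passing means a Benjamini-Hochberg adjusted p below 0.05 over all 15652 genes tested. CPM use TMM-scaled totals. Levels per kb use the union of GENCODE M21 exons (GRCm38), and the 95% CI is that of the moderated fit. The alternatives included edgeR's quasi-likelihood test, DESeq2 1.42.0, other scalings, filters and weights, leaving out each library and, chosen after seeing the data, a skeletal muscle score as covariate and leaving out both muscle-rich libraries. The members, gene lists and tests were chosen with earlier results of these data known. The genes named were the 9 members, the targeted genes, the genes of the 3 other lists that passed (up to 8 each) and the 3 most like *Lamc1*. Further partner, receptor and marker genes are named for their roles, or as members outside a count, after their values were seen. The steps were tested on simulated data. Intervals and the 3-count floor cover counting error or the spread of these libraries. Python 3.11.15 (matplotlib 3.10.9) drew the figures.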

Additional observations from a re-analysis of the deposited data

How the results depend on the processing

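With 3 libraries per genotype, calls near the threshold depended on single libraries. Leaving out each library in turn gave 383 to 3006 genes passing, 362 to 2285 DEGs, 0 to 4 laminin genes lower, 0 to 1 higher and 0 to 3 laminin DEGs. The same fits gave 0 to 6 partner genes lower, 0 to 3 receptor genes lower and 1 to 4 higher, and 0 to 1 glycosylation genes higher. No count was lower in another of these fits than without *Nf1fl/fl;DhhCre* replicate 1. DESeq2 gave 4574 genes passing, against 3017, 5 receptor genes higher, against 3, and 1 glycosylation gene higher, against 0. Without both libraries rich in skeletal muscle RNA, 0 laminin genes passed as higher and 0 were DEGs, although *Lama2*, *Lama4* and *Lamc1* passed as lower, and with the muscle score as covariate the same 5 laminin genes passed. The cause of these shifts was not tested. The sign reversed for *Lama1* without replicate 3 labelled DKO (-0.024), for *Lamb1* without *Nf1fl/fl;DhhCre* replicate 1 (0.023) and for *Nf1* without *Nf1fl/fl;DhhCre* replicate 1 (0.043), replicate 1 labelled DKO (0.041) or replicate 2 labelled DKO (0.009), none of which passed in any of these fits. Over these fits *Lama1* ran from -0.024 to 1.36, *Lamb1* from -0.27 to 0.023 and *Nf1* from -0.18 to 0.043. Scaling by library size alone moved the median of all genes to -0.061 and kept the calls of all 8 laminin genes, but *Dtna* no longer passed (0.36, limma-voom adjusted p = 0.0745), leaving 2 receptor genes higher. Per kb of coding sequence in place of exon, *Lama4* made up 51.5% and 55.0% of the alpha chain level in *Nf1fl/fl;DhhCre* and DKO-labelled libraries, *Lama2* 45.5% and 39.6%, *Lama5* 2.35% and 2.96%, and *Lamb1* 67.7% and 77.9% of the beta chain level. No paired analysis was possible because the labels give mouse numbers and no replicate numbers shared between genotypes. Among the members, depth limits *Lamb3* and *Lama1* most.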
